A study of Mus musculus with 4 samples.

Results

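MiRNAs known from myeloid cells and from inflammation were described in the exosomes, the small vesicles released into the culture medium, of BV2 cells, an immortalized mouse microglial line. The 8 names, chosen because their miRNAs are known to mark myeloid cells or to be regulated when microglia are activated, were miR-21a-5p, miR-146a-5p, miR-146b-5p, miR-155-5p, miR-223-3p, miR-142a-3p, miR-142a-5p and miR-150-5p. All 8 were found among the 603 miRNA names listed in each library. Exosomal small RNA was sequenced in 4 libraries, 2 of the control group (NC1 and NC2) and 2 of the heatstroke (HS) group (HS1 and HS2), all from wild-type (WT) BV2 cells. The control dishes stayed at 37 °C for 2 h. The HS dishes spent 2 h at 42 °C, and the methods add 12 h of rewarming at 37 °C, although the Results of the study place the harvest earlier after heating. Each group is a single cell line, and nothing in the labels says whether its 2 libraries came from separate cultures, so the spread between them may be technical.

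MiRNAs are short RNAs that pair with messenger RNAs mainly through their seed, bases 2 to 8, and lower the output of those messages. In macrophages and microglia, Toll-like receptor and NF-κB signalling raises miR-155 and the miR-146 pair. MiR-155 favours the inflammatory response, for example by repressing the cytokine signalling inhibitor Socs1, while the miR-146 pair represses the adaptors Traf6 and Irak1 and so damps it. MiR-142 is made in cells of blood origin, miR-223 is typical of granulocytes and monocytes and restrains the inflammasome protein Nlrp3, miR-150 is abundant in mature lymphocytes, and miR-21 is found in many cell types and rises in inflammation and injury.

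The mature sequences of the 7 names with an entry in RefSeq (GRCm38.p6) are shown 5′ to 3′ because their seeds decide which names can share targets; the seed is in capitals. No entry was used for mmu-miR-150-5p.
mmu-miR-21a-5p: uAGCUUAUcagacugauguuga
mmu-miR-146a-5p: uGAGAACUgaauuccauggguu
mmu-miR-146b-5p: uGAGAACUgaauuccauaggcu
mmu-miR-155-5p: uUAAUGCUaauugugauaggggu
mmu-miR-223-3p: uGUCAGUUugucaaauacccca
mmu-miR-142a-3p: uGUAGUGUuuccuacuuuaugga
mmu-miR-142a-5p: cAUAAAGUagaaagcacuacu

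The 7 sequences carried 6 distinct seeds, and only miR-146a-5p and miR-146b-5p had the same seed. Counted from the 5′ end, miR-146b-5p differed from miR-146a-5p by the substitutions G18A and U21C, both outside the seed. No other listed name shared its reads in all 4 libraries with any of the 8. The GC content of the 7 sequences was between 33.3% and 40.9%, against a median of 50% over the 497 listed names with a RefSeq entry.

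On GRCm38, miR-21a-5p lies at chr11:86584120-86584141 on the minus strand, inside an exon annotated for the protein-coding gene Vmp1. MiR-146a-5p lies at chr11:43374435-43374456 on the minus strand and overlaps no other annotated gene. MiR-146b-5p lies at chr19:46342790-46342811 on the plus strand, in an intron of Mfsd13a. MiR-155-5p lies at chr16:84714143-84714165 on the plus strand, in an exon of its host transcript Mir155hg. MiR-223-3p lies at chrX:96242884-96242905 on the plus strand, in an exon of the non-coding gene F630028O10Rik. MiR-142a-5p at chr11:87756867-87756887 and miR-142a-3p at chr11:87756903-87756925 are the 2 arms of 1 plus-strand hairpin in an intron of Mir142hg. Mir142b is annotated on the opposite strand there, and a miR-142b name was not among the listed ones. Whether reads were counted by strand is not given in the sources used here.

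The libraries differed in depth, and HS1 stood apart. Reads on listed miRNAs totalled 96516 and 121503 in NC1 and NC2, 42091 in HS1 and 113966 in HS2, and the names detected numbered 439, 444, 228 and 420 in the same order. Levels are given as normalized counts, which are reads divided by the size factor of the library. A count of 0 reads still allows up to 3 reads, or 2.51 and 2.03 normalized counts in NC1 and NC2, 7.25 in HS1 and 1.99 in HS2. These limits, like the read intervals given with shares and pooled ratios, are for counting error only, as copies made by amplification do not count separate molecules. In exosome RNA, fewer vesicles or cells of a kind and less of a miRNA in each cannot be told apart.

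The 8 members fell into 5 well-covered names and 3 names with few reads. MiR-21a-5p and miR-146a-5p had the highest levels, with means over the 4 libraries of 1438 and 1407 normalized counts, followed by miR-146b-5p (404), miR-142a-5p (152) and miR-155-5p (115). The order of miR-21a-5p and miR-146a-5p changed between libraries, since miR-21a-5p was higher in NC1 only. The other 3, miR-142a-3p, miR-150-5p and miR-223-3p, had 23, 19 and 10 reads in all 4 libraries together. MiR-223-3p, a defining myeloid miRNA, was thus close to the limit of detection in exosomes of this microglial line, with 5 reads in NC1, 2 in NC2, 3 in HS1 and 0 in HS2.

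**Figure D1:**
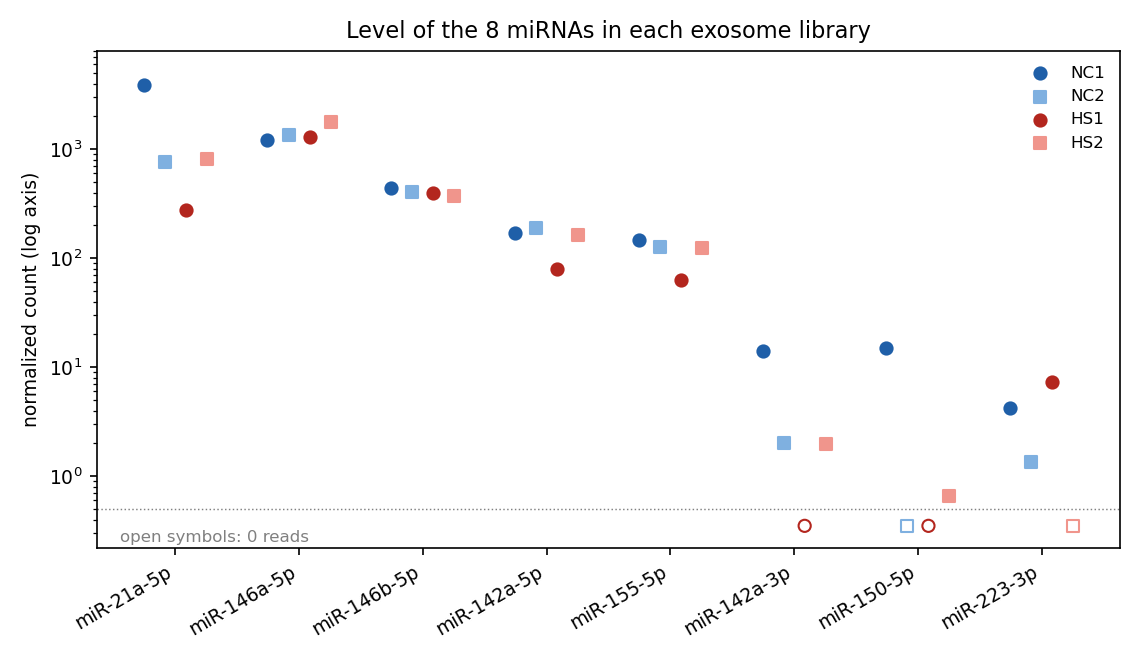
Normalized count (log axis) of each of the 8 miRNAs in the 4 exosome libraries, in order of mean level. Filled symbols are single libraries and open symbols under the dotted line are libraries with 0 reads; miR-21a-5p reaches 3900.3 in NC1 and 276 in HS1, while the 4 values of miR-146b-5p lie between 372 and 445.

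The comparison of the HS with the control group asked whether heating changed these miRNAs in the exosomes, and no member passed the test. MiR-21a-5p had the largest difference among the well-covered members, a HS mean 0.234 times the control mean, but 1 control library held most of it. MiR-146a-5p was 1.19 times and miR-146b-5p 0.902 times the control mean, and miR-155-5p and miR-142a-5p were 0.679 and 0.675 times. Of the 8 members, 0 had an adjusted p under 0.05 (limma, Benjamini-Hochberg over all 376 tested miRNAs), against 0% of all tested miRNAs. The lowest adjusted p of a member was 0.621. All 8 members passed the minimum of 10 reads summed over the 4 libraries, which miR-223-3p met exactly. By the study's own criterion, a change over 2-fold at an unadjusted p below 0.05, 0 members were altered in limma, against 6.65% of all tested miRNAs in the downward and 1.6% in the upward direction. At an unadjusted p under 0.05 limma gave 0 members and 31 miRNAs in all. DESeq2's Wald test and edgeR's quasi-likelihood test on the recovered reads also gave 0 adjusted calls. With each of them miR-21a-5p alone among the members met the study's criterion, on the lower side (unadjusted p = 0.0314 and adjusted p = 0.554 in DESeq2, unadjusted p = 0.00191 and adjusted p = 0.15 in edgeR), as did 3.99% and 5.05% of all tested miRNAs. Both HS libraries lay below both control libraries for 4 members, miR-146b-5p, miR-155-5p, miR-142a-5p and miR-142a-3p, against 32.4% of all tested miRNAs. For miR-142a-3p this rested on few reads, with 3 in NC2 (2.03 normalized counts), 3 in HS2 (1.99) and 0 in HS1. Both HS libraries lay above both control libraries for 0 members, against 12.5% of all tested miRNAs.

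The members' differences lay among those of the other miRNAs. Between 20.5% (miR-142a-3p) and 72.1% (miR-146a-5p) of all tested miRNAs had a lower difference than a member. Of the 8 members, 7 had a log2 difference (HS minus control, on normalized count + 1) below 0, against 246 of the 376 tested miRNAs. The median log2 difference of the 8 was -0.64, or -0.63 without miR-21a-5p, and that of all 376 tested miRNAs was -0.65. Without HS1 the median of the 8 was -0.63, or -0.19 without miR-21a-5p, and that of all tested miRNAs was -0.17. Without NC1 the median of the 8 was -0.30, or -0.08 without miR-21a-5p, against -0.55 for all.

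**Figure D2:**
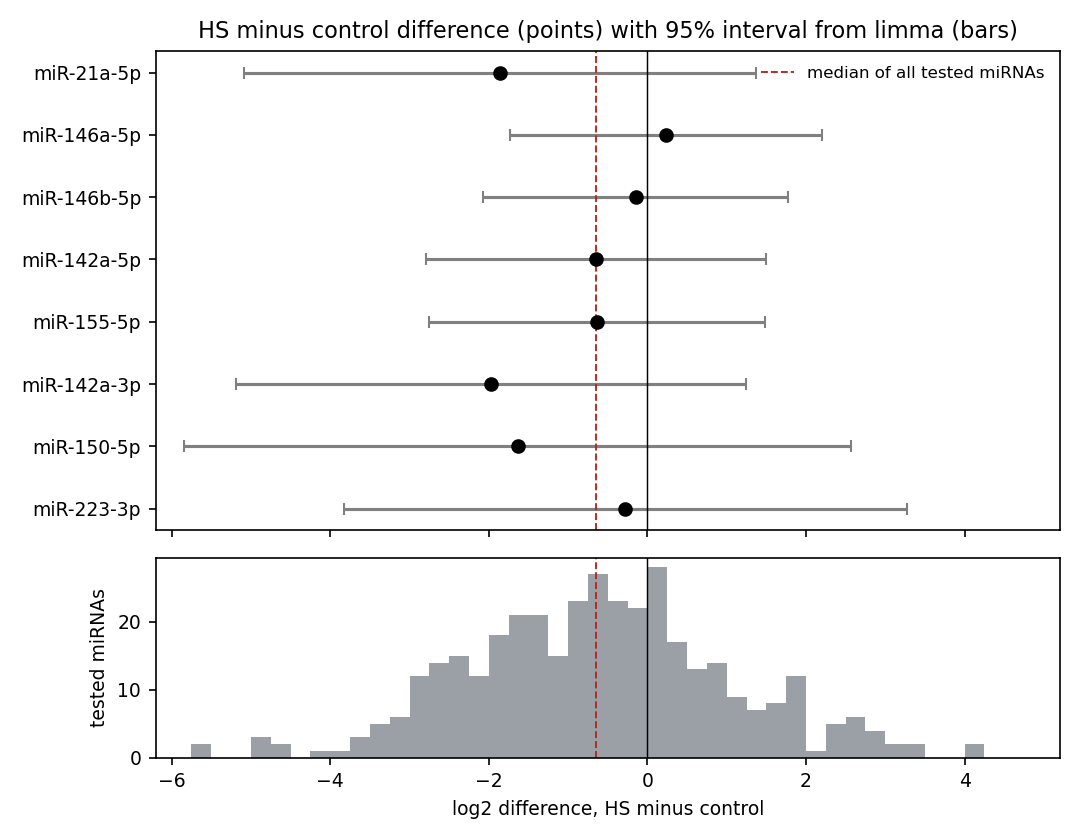
Upper panel, log2 difference (HS minus control) of each miRNA with its 95% interval from limma; lower panel, number of the 376 tested miRNAs per 0.25 of log2 difference, with the median of all tested miRNAs (-0.65) as a dashed line. Every interval of the 8 members includes 0, and the members lie between -1.97 and 0.23.

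MiR-21a-5p, a broadly expressed miRNA that represses the tumour suppressor Pdcd4, varied most among the well-covered members. It had 4666 reads in NC1, 1124 in NC2, 114 in HS1 and 1230 in HS2, or 3900.3, 762, 276 and 816 normalized counts. NC1 was thus high and HS1 low, while NC2 and HS2 lay close together and the groups overlapped. The control mean was 2331 ± 2219 (SD, n = 2) and the HS mean 546 ± 382 (SD, n = 2), a log2 difference of -1.86 (standard error 1.20, adjusted p = 0.621 from limma). Its 95% interval went from 0.0294 to 2.58 times the control level. Without NC1 the log2 difference was -0.68, without HS1 -1.08, without HS2 -2.64 and without NC2 -3.04.

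The spread of miR-21a-5p was also wide beside that of other miRNAs. The control libraries were 5.12-fold apart, and of the 157 miRNAs with at least 100 reads in all, 8 of those read in both control libraries were further apart. The median distance between the control libraries was 1.44-fold. The HS libraries were 2.96-fold apart, against a median of 1.99-fold over the 141 read in both HS libraries, of which 40 were further apart. MiRNAs with 0 reads in a HS library, such as miR-199a-3p (0 in HS1 and 735 in HS2), are left out of this median and count. Some of the widest HS spreads are therefore missing from them. By number of reads miR-21a-5p ranked 3 in NC1, 32 in NC2, 41 in HS1 and 27 in HS2. The opposite arm of its hairpin, miR-21a-3p, was read 3 times, all in NC1, and the similarly named miR-21b once.

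Of 4 lists of markers of other cells, 2 had their highest sum in NC1 and their lowest in HS1, as miR-21a-5p did, and 2 did not. All 7 miRNAs of a list of stromal and endothelial markers were detected, and together they had 3300.1 normalized counts in NC1, 1415 in NC2, 21.8 in HS1 and 928 in HS2. In HS1, miR-199a-3p, miR-126a-5p and miR-145a-5p of that list were at 0 reads, while miR-214-3p, with 18 reads in all, was highest in NC2 and lowest in HS2. A list of 5 epithelial markers summed to 379 in NC1, 181 in NC2, 2.42 in HS1 and 114 in HS2, with miR-200b-3p, miR-200c-3p, miR-141-3p and miR-205-5p at 0 in HS1 and miR-205-5p also at 0 in NC1. The sums of the other 2 lists were highest in HS1, but not all of their miRNAs were. Red cell and serum markers summed to 139 normalized counts in NC1, 229 in NC2, 346 in HS1 and 222 in HS2. Of these, miR-122-5p (232 in HS1), miR-451a and miR-486a-5p were highest in HS1. MiR-16-5p was highest in NC1 and lowest in HS1, with 61.9 normalized counts in NC1, 36.6 in NC2, 14.5 in HS1 and 35.8 in HS2. MiR-144-3p was read only in NC1. Neuronal markers summed to 2223 normalized counts in NC1, 3075 in NC2, 3755 in HS1 and 2129 in HS2. Most of this sum was miR-128-3p in each library. The other neuronal markers detected were highest in NC2 and lowest in HS1. In the same order, miR-9-5p had 80.2, 128, 21.8 and 75.6 normalized counts, and miR-218-5p 24.2, 41.3, 0 and 8.63. The part of any of these lists in the values of miR-21a-5p was not tested. The 3 miRNAs with the profile nearest to that of miR-21a-5p across the 4 libraries were miR-200a-3p, miR-29a-3p and miR-30a-5p, at root mean square distances of 0.35, 0.45 and 0.49 on the log2 scale, where the median over the other miRNAs with at least 100 reads was 1.45. The first of them, miR-200a-3p, belongs to the epithelial list and had 97 reads in NC1, 14 in NC2, 1 in HS1 and 12 in HS2. The second, miR-29a-3p, belongs to the list of innate immune miRNAs described below.

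MiR-146a-5p, which limits Toll-like receptor signalling through Traf6 and Irak1, was the 1 well-covered member with a higher HS mean. It had 1457 reads in NC1, 2001 in NC2, 533 in HS1 and 2662 in HS2, or 1218, 1356, 1289 and 1766 normalized counts. HS2 was the highest, and HS1 lay between the control libraries. The control and HS means were 1287 ± 97.9 (SD, n = 2) and 1528 ± 338 (SD, n = 2), with a log2 difference of 0.23 (standard error 0.73, adjusted p = 0.897 from limma). Without HS2 the log2 difference was 0.0041, and without HS1 it was 0.46. From the level of either control library, 504 and 561 reads would have been counted in HS1, where 533 were. The nearest profiles were those of miR-378c, miR-330-3p and miR-25-3p, at root mean square distances of 0.072, 0.099 and 0.13 on the log2 scale (median of the others 0.68).

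MiR-146b-5p, which carries the same seed, varied least. Its levels were 445 normalized counts in NC1, 404 in NC2, 394 in HS1 and 372 in HS2, from 532, 596, 163 and 560 reads. Both HS libraries were below both control libraries, but by little, with control and HS means of 424 ± 28.8 (SD, n = 2) and 383 ± 16 (SD, n = 2). The log2 difference was -0.15 (standard error 0.71, adjusted p = 0.941 from limma), with a 95% interval from 0.238 to 3.42 times the control level. The control libraries were 1.10-fold apart and the HS libraries 1.06-fold, and with at least 100 reads 136 miRNAs were further apart in the control group and 132 of 141 in the HS group. The nearest profiles were those of miR-99a-5p and miR-18a-3p, both at 0.10, and let-7j, at 0.11 (median of the others 0.64).

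Within a library, a ratio of reads does not depend on the scaling. MiR-146a-5p made up 73.3% of the reads of the miR-146 pair in NC1 (95% Wilson interval 71.3% to 75.2%) and 77.1% in NC2 (75.4% to 78.6%). In the HS libraries the shares were 76.6% in HS1 (73.3% to 79.6%) and 82.6% in HS2 (81.3% to 83.9%). HS2 was above the intervals of the other 3 libraries, whereas HS1 lay between the control libraries, so the groups overlapped. At this size the smallest two-sided p of an exact permutation test is 0.333, and none was run on these shares.

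MiR-155-5p, the inflammatory miRNA made from Mir155hg, was read 176 and 188 times in NC1 and NC2 and 26 and 186 times in HS1 and HS2. These were 147, 127, 62.9 and 123 normalized counts. HS1 was low, while HS2 lay just below the lower control library. The control and HS means were 137 ± 13.9 (SD, n = 2) and 93.1 ± 42.8 (SD, n = 2), with a log2 difference of -0.63 (standard error 0.78, adjusted p = 0.739 from limma). Without HS1 the difference was -0.15, and without HS2 it was -1.11. HS1 would have had between 51.0 and 60.8 reads at the level of any other library, and had 26.

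MiR-142a-5p, the leukocyte miRNA of the Mir142 hairpin, had a profile close to that of miR-155-5p. It was read 205 and 281 times in NC1 and NC2 and 33 and 248 times in HS1 and HS2, giving 171, 190.5, 79.8 and 165 normalized counts. Again HS1 was low and HS2 was just under the control libraries. The control and HS means were 181 ± 13.5 (SD, n = 2) and 122 ± 59.9 (SD, n = 2), with a log2 difference of -0.65 (standard error 0.79, adjusted p = 0.739 from limma). Without HS1 it was -0.13, and without HS2 it was -1.17. The profiles of miR-142a-5p and miR-155-5p were 0.13 apart on the log2 scale, the smallest of the 10 distances among the 5 well-covered members, which otherwise ran from 0.29 to 1.43. The distance from miR-155-5p was smaller only for miR-148b-3p, at 0.12, and miR-24-2-5p came next at 0.15 (median of the others 0.77). The profiles nearest to miR-142a-5p were those of miR-467a-5p and miR-467b-5p, which shared their reads, at 0.079, and of miR-877-3p, at 0.13 (median of the others 0.79). These likenesses rest on 4 libraries that differ in depth and are a description only.

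**Figure D3:**
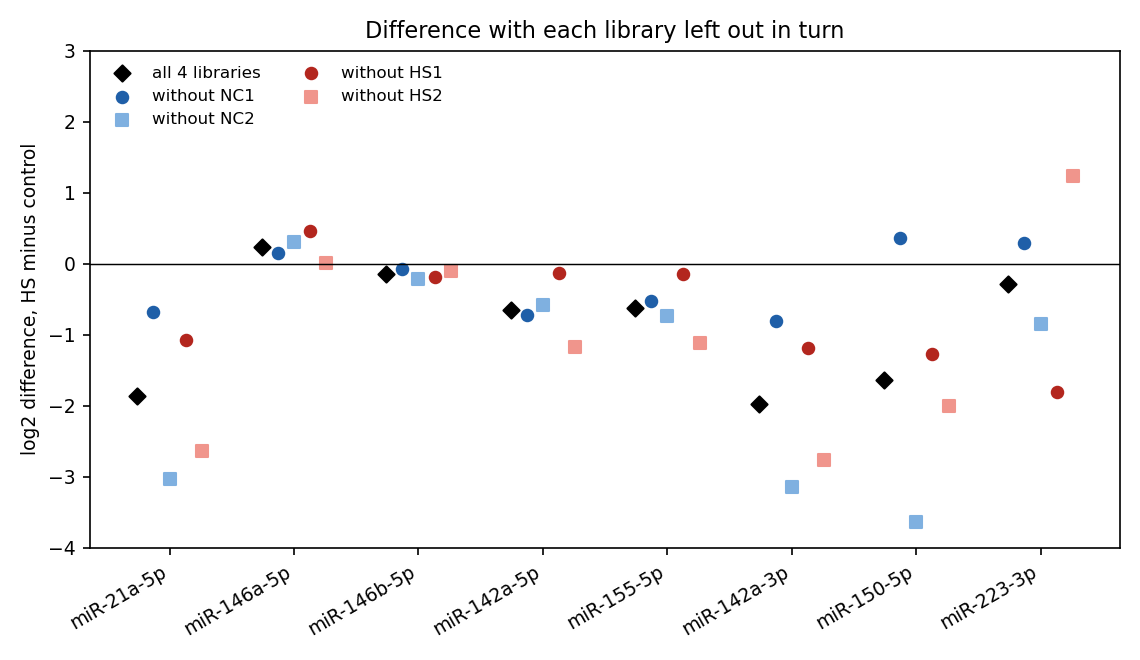
Log2 difference (HS minus control) of each miRNA from all 4 libraries (diamonds) and with 1 library left out in turn (circles and squares). MiR-142a-5p and miR-155-5p move to -0.13 and -0.15 without HS1 and to -1.17 and -1.11 without HS2, miR-21a-5p ranges from -3.04 to -0.68, and miR-150-5p and miR-223-3p change sign.

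The Mir142 hairpin (chr11:87756864-87756927, plus strand) is shown because both of its arms are members; the arms are in capitals, miR-142a-5p first.
Mir142: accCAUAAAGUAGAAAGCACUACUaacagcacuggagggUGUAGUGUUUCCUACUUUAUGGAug

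In these exosomes nearly all of its reads came from the 5p arm. MiR-142a-5p made up 92.3% of the reads of both arms in NC1 (205 of 222, 95% Wilson interval 88.1% to 95.2%) and 98.9% in NC2 (281 of 284, 96.9% to 99.6%). It made up 100% in HS1 (33 of 33, 89.6% to 100%) and 98.8% in HS2 (248 of 251, 96.5% to 99.6%). NC1 thus had the largest 3p share, with an interval apart from those of NC2 and HS2 but overlapping that of HS1. The intervals of NC2, HS1 and HS2 also overlapped. MiR-142a-3p itself had 17 reads in NC1, 3 in NC2, 0 in HS1 and 3 in HS2, or 14.2, 2.03, 0 and 1.99 normalized counts. Per size factor, the pooled HS reads were 0.209 times the pooled control reads (exact 95% counting interval 0.0397 to 0.704, 3 against 20 reads). This ratio compares these reads and not the groups, as 17 of the 20 control reads were in NC1. The log2 difference was -1.97 (standard error 1.19, adjusted p = 0.621 from limma). Without NC1 it was -0.81, without HS2 -2.76 and without NC2 -3.14.

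MiR-150-5p, the lymphocyte miRNA, was likewise read mainly in 1 library. It had 18 reads in NC1, 0 in NC2, 0 in HS1 and 1 in HS2. The pooled ratio of HS to control was 0.0773 (exact 95% counting interval 0.00185 to 0.489, 1 against 18 reads), which compares these reads and not the groups. The log2 difference was -1.63 (standard error 1.56, adjusted p = 0.673 from limma). Without NC1 it was 0.37. Without NC2 it was -3.64, with an unadjusted p of 0.0376 and an adjusted p of 0.638 in limma.

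MiR-223-3p, at 4.18 normalized counts in NC1, 1.36 in NC2, 7.25 in HS1 and 0 in HS2, showed no direction at this depth. Its log2 difference of -0.28 (standard error 1.32, adjusted p = 0.941 from limma) turned to 1.24 without HS2 and 0.29 without NC1, and was -1.80 without HS1. The pooled ratio was 0.596 (exact 95% counting interval 0.0995 to 2.61, 3 against 7 reads). The opposite arm, miR-223-5p, had more reads, with 11 in NC1, 8 in NC2, 0 in HS1 and 13 in HS2. Both arms are in capitals in the hairpin (chrX:96242817-96242926, plus strand), miR-223-5p first, shown because the listed reads were split between them.
Mir223: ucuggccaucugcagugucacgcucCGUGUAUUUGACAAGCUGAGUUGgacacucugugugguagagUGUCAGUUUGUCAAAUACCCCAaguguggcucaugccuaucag

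The summed level depended on whether miR-21a-5p was counted. The 8 members together had 5915 normalized counts in NC1, 2843 in NC2, 2109 in HS1 and 3245 in HS2, and the ratio of the group means was 0.611. Of the listed reads these sums were 7.33% in NC1 (95% Wilson interval 7.17% to 7.50%), 3.45% in NC2 (3.35% to 3.56%), 2.07% in HS1 (1.94% to 2.21%) and 4.29% in HS2 (4.17% to 4.41%). Without NC1 the log2 ratio of -0.71 became -0.087. Without miR-21a-5p the other 7 had 2014 normalized counts in NC1, 2082 in NC2, 1833 in HS1 and 2428 in HS2, which lay on either side of both. The control and HS means were then 2048 ± 47.4 (SD, n = 2) and 2131 ± 421 (SD, n = 2), a ratio of 1.04, and the log2 ratio of 0.057 was -0.0035 with the libraries scaled by their listed totals. As shares of the listed reads the 7 made up 2.50% in NC1 (95% Wilson interval 2.4% to 2.60%), 2.53% in NC2 (2.44% to 2.62%), 1.80% in HS1 (1.68% to 1.93%) and 3.21% in HS2 (3.11% to 3.32%). No test was run on these sums.

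MiR-21a-5p alone was 65.9% of the members' reads in NC1 (95% Wilson interval 64.8% to 67.0%), 26.8% in NC2 (25.5% to 28.2%), 13.1% in HS1 (11% to 15.5%) and 25.2% in HS2 (24.0% to 26.4%). Both HS shares were below both control shares, but the intervals of NC2 and HS2 overlapped. By normalized count the groups overlapped for miR-21a-5p. How often such shares separate over all miRNAs was not computed. Of the read ratios between 2 miRNAs with at least 100 reads, 41.9% had groups that did not overlap. Among the reads of the other 7, the share of miR-146a-5p was 60.5% in NC1 (95% Wilson interval 58.5% to 62.4%), 65.2% in NC2 (63.5% to 66.8%), 70.3% in HS1 (67.0% to 73.5%) and 72.7% in HS2 (71.3% to 74.2%). That of miR-155-5p was 7.30% in NC1 (6.33% to 8.41%), 6.12% in NC2 (5.33% to 7.03%), 3.43% in HS1 (2.35% to 4.98%) and 5.08% in HS2 (4.42% to 5.84%). The share of miR-142a-5p was 8.51% in NC1 (7.46% to 9.69%), 9.15% in NC2 (8.18% to 10.2%), 4.35% in HS1 (3.12% to 6.05%) and 6.78% in HS2 (6.01% to 7.64%). That of miR-146b-5p was 22.1% in NC1 (20.5% to 23.8%), 19.4% in NC2 (18.0% to 20.8%), 21.5% in HS1 (18.7% to 24.6%) and 15.3% in HS2 (14.2% to 16.5%). Being parts of the same total, these shares depend on each other, and they were not tested.

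**Figure D4:**
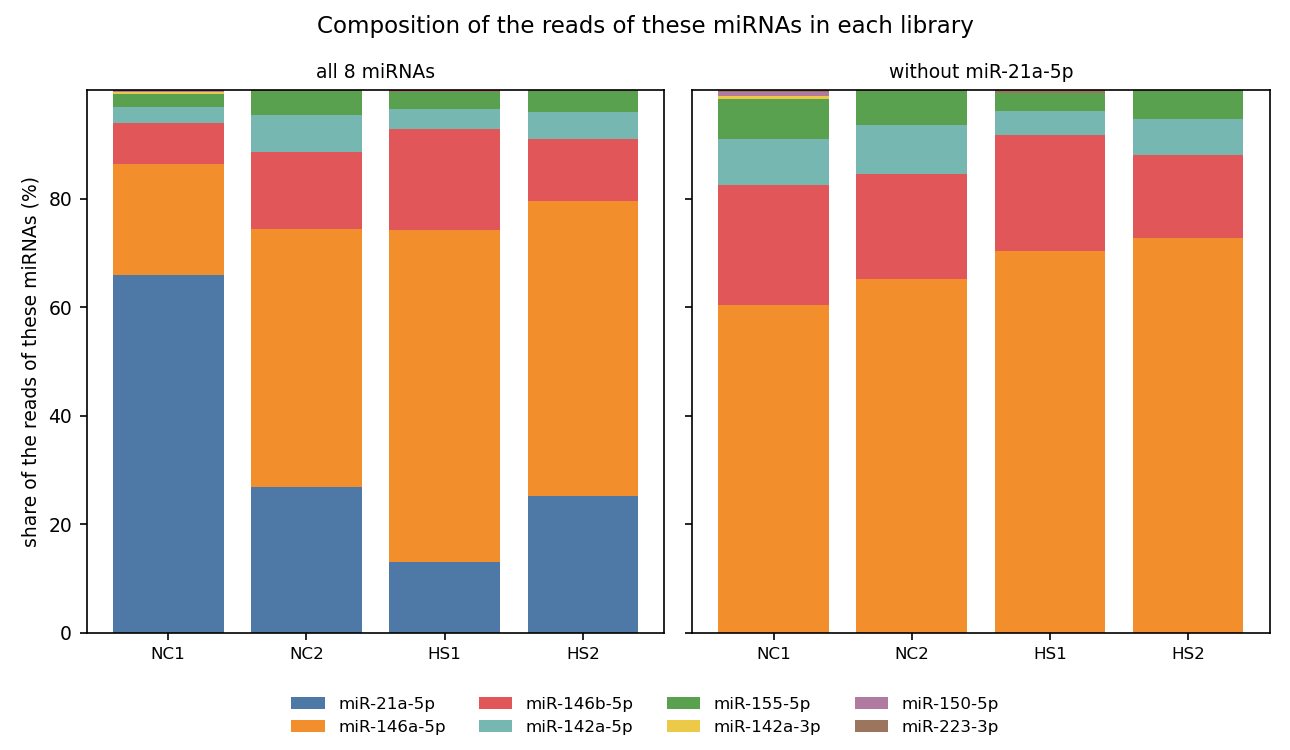
Share of each miRNA in the reads of all 8 miRNAs (left) and of the 7 without miR-21a-5p (right), in percent, for each library. The share of miR-21a-5p is 65.9% in NC1 and at most 26.8% elsewhere, and on the right miR-146a-5p takes 60.5% to 65.2% in the control libraries and 70.3% to 72.7% in the HS libraries. Shares of the same total depend on each other, and they were not tested.

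The ratios between the 5 well-covered members were compared in 10 pairs. In 3 pairs the groups did not overlap, against 41.9% of all 9591 pairs of the 139 miRNAs with at least 100 reads that were read in every library. The ratio of miR-146a-5p to miR-155-5p was 8.28 in NC1, 10.6 in NC2, 20.5 in HS1 and 14.3 in HS2. The ratio of miR-146a-5p to miR-142a-5p was 7.11 in NC1, 7.12 in NC2, 16.2 in HS1 and 10.7 in HS2. In the third pair, miR-21a-5p to miR-146a-5p, the ratio was 3.20 in NC1, 0.562 in NC2, 0.214 in HS1 and 0.462 in HS2. The remaining pair with miR-146a-5p overlapped, with a ratio of miR-146a-5p to miR-146b-5p of 2.74 in NC1, 3.36 in NC2, 3.27 in HS1 and 4.75 in HS2. The ratio of miR-155-5p to miR-142a-5p stayed between 0.669 and 0.859 in the 4 libraries, and its groups overlapped.

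**Figure D5:**
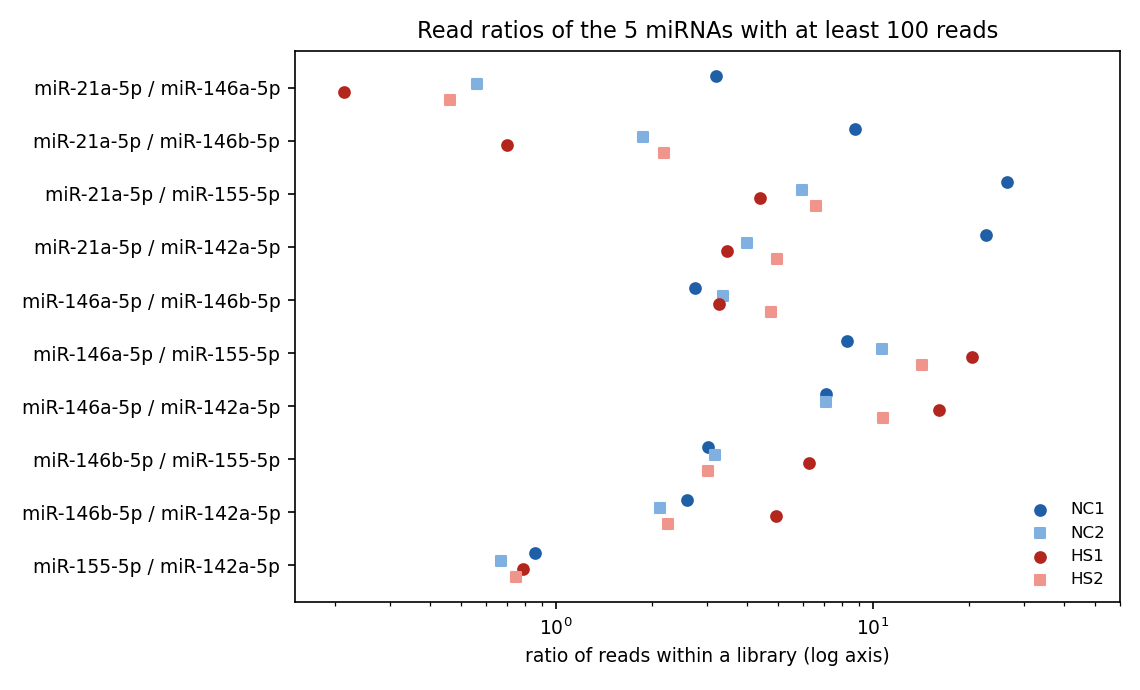
Ratio of reads within each library (log axis) for the 10 pairs of the 5 miRNAs with at least 100 reads; circles and squares are replicates 1 and 2 of the control (blue) and HS (red) groups. The ratio of miR-146a-5p to miR-142a-5p lies at 7.11 and 7.12 in the control libraries and at 10.7 and 16.2 in the HS libraries.

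Other miRNAs of innate immune signalling were taken from a list of 20 names, of which 17 were listed and 15 tested. None of the 15 passed the test in either direction (0 with an adjusted p under 0.05 in limma, 0 under the study's criterion), 11 had a log2 difference below 0 and 4 above, and the median was -1.0, against -0.65 for all tested miRNAs. For 5 of the 15 both HS libraries lay below both control libraries, as they did for 32.4% of all tested miRNAs. The most abundant were miR-222-3p, with 1539 normalized counts in NC1, 2099.8 in NC2, 2067 in HS1 and 2019 in HS2, and miR-221-3p, with 799, 809, 459 and 990.0 in the same order. These paralogues, which repress the cell cycle inhibitor Cdkn1b, had log2 differences of 0.18 and -0.25, and adjusted p-values of 0.927 and 0.897 from limma. The lowest adjusted p of the list was 0.585. Of 6 opposite arms of the members, 2 were listed, miR-21a-3p and miR-223-5p, and the 1 tested, miR-223-5p, had a log2 difference of -1.38 (adjusted p = 0.675 from limma).

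A list of 7 myeloid and leukocyte markers, 6 of them members and the seventh miR-342-3p, was detected in full. It summed to 1612 normalized counts in NC1, 1698 in NC2, 1465 in HS1 and 2098 in HS2, so that the groups overlapped. MiR-223-3p and miR-150-5p of that list were at 0 in 1 and 2 libraries, and miR-142a-3p in 1. Most of the sum was miR-146a-5p in each library.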

How the data were processed

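The 4 deposited tables hold 1 value per miRNA name and exosome library, headed RPKM. According to the methods, the authors removed adapters, low-quality reads and reads under 17 nt, and mapped the rest with bowtie; versions, genome build and miRNA annotation are not given in the sources used here. In each library the deposited signal values were whole multiples of the smallest one (100% within 0.001 of a whole number). They are thus reads over a size factor, 1.20 in NC1, 1.48 in NC2, 0.414 in HS1 and 1.51 in HS2, and not values per length. Division by the smallest value gave back the reads.

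HS and control libraries entered limma 3.58.1 under R 4.3.3 (lmFit, then eBayes with no trend) as log2(normalized count + 1), for names with 10 or more reads in all, with Benjamini-Hochberg adjustment over all 376. A fold on this scale understates changes of names with few reads. Alternatives were DESeq2 1.42.0 and edgeR 4.0.16 on the reads, other scalings, pseudocounts and read minimums, a replicate block, and each library left out. The fit was also run on simulated counts with known folds. These varied independently for each miRNA, without profile shifts of a whole library, so no conclusion about these data is drawn from them. The members and all lists were chosen with earlier results of these data known. The names in the text are the members, the 3 nearest profiles of each well-covered member, and, of each list, the names with the most reads and those meeting the study's criterion; others were named after their values were seen. The pair ratios and shares of the sums were added after the values had been seen. Sequences are from RefSeq (7 of 8 members matched) and annotations from GENCODE M21.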

Additional observations from a re-analysis of the deposited data

How the results depend on the processing

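The number of members with an adjusted p under 0.05 was 0 under each of the 15 alternatives, and so was that of all tested miRNAs; the lowest adjusted p of a member was 0.15, for miR-21a-5p in edgeR. Of 117 recomputed member differences 112 kept their direction. MiR-223-3p reversed to 0.31 with DESeq2 and 0.035 with a pseudocount of 5, and ranged from -1.80 to 1.24 with 1 library left out. MiR-150-5p ranged from -3.64 to 0.37, reversed without NC1. The study's criterion was met by 1 member with DESeq2 (miR-21a-5p, log2 difference -2.09), by 1 with edgeR (the same name, -1.96) and by 0 to 1 with a library left out (miR-150-5p without NC2). Over all tested miRNAs it was met by 31, by 16 with a pseudocount of 5, by 5 of the 157 with at least 100 reads, where fewer names were tested, and by 26 to 113 with a library left out, most without HS2; other causes were not tested. With the replicate number as a block it was met by 19. The numbers pair no samples by the labels, and the deviations of the first replicates correlated at -0.097 over 376 miRNAs. The log2 ratio of the members' summed level ranged from -1.14 to -0.087 with a library left out, the latter without NC1, and without miR-21a-5p from -0.16 (without HS2) to 0.25. The 3 shares within a library kept their direction in each such case. Depth limits miR-142a-3p, miR-150-5p and miR-223-3p, and with 2 libraries a group only large changes could be seen.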

Other observations

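After their values were seen, the 4 miRNAs of the innate immune list with the widest differences were picked out. MiR-322-5p, with 20 reads in all, had a log2 difference of -2.15 (adjusted p = 0.585 from limma). MiR-125a-5p had 91.9 normalized counts in NC1, 68.5 in NC2, 12.1 in HS1 and 36.5 in HS2, a log2 difference of -1.86 (adjusted p = 0.617 from limma). MiR-181a-5p had 142.1 normalized counts in NC1, 159 in NC2, 14.5 in HS1 and 114 in HS2, a log2 difference of -1.84 (adjusted p = 0.621 from limma). MiR-29a-3p had 322 normalized counts in NC1, 104 in NC2, 45.9 in HS1 and 68.3 in HS2, a log2 difference of -1.69 (adjusted p = 0.617 from limma). None of the 4 passed the test.

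Of the 5 serum and red cell markers, all listed and 4 tested, the liver miRNA miR-122-5p had the most reads over the 4 libraries together, with 22.6 normalized counts in NC1, 119 in NC2, 232 in HS1 and 137 in HS2. In NC1 miR-16-5p (61.9) and miR-451a (37.6) were above it. Of the 5 neuronal markers 3 were listed, and miR-128-3p made up most of their sum, with 2119 normalized counts in NC1, 2906 in NC2, 3734 in HS1 and 2044 in HS2, while miR-124-3p was not among the listed names. Of the stromal and endothelial list, 1 name, miR-126a-5p, met the study's criterion, with 14 reads in NC1, 11 in NC2, 0 in HS1 and 2 in HS2 (adjusted p = 0.516 from limma).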
